A study of Mus musculus with 21 samples.

Results

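Inward rectifier potassium (Kir) channels were described in mouse inner ear cells through 10 named genes of the Kcnj family: Kcnj2, Kcnj3, Kcnj4, Kcnj6, Kcnj9, Kcnj10, Kcnj11, Kcnj12, Kcnj13 and Kcnj16. The count table held 52550 genes, among them all 10 members and 5 further Kcnj genes, which were low throughout. RNA-Seq libraries had been made from spiral ganglion neurons (SGNs), the neurons that carry sound information from the cochlea to the brain, at 5 ages (the embryonic day E15.5 and the postnatal days P1, P8, P14 and P30), and from 2 reference populations, hair cells (HCs, the sensory cells) at P12 and glial cells of the ganglion at P8. Each of these 7 groups had 3 replicates, which gave 21 libraries, all from C57BL/6 mice.

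All cells had been selected for tdTomato, expressed from the Rosa26 locus (Rosa26-CAG-loxp-stop-loxp-tdTomato/+) once Cre had acted, and the groups differed in the Cre line. ShhCre/+ marked the SGNs, Atoh1-CreER+ with tamoxifen at P0 and P1 marked the HCs, and vGlut3-iCreER/+ with tamoxifen at P2 and P3 marked the glia, a line that also marks inner HCs, so that for glia only tissue of the ganglion area had been taken. The HCs came from cochlear and vestibular organs together, whereas SGNs and glia were cochlear. SGNs and glia had been picked by hand. For HCs the labels name sorting by hand and the methods of the study name FACS, so the way the cells were isolated and the cell type cannot be told apart in comparisons with HCs. A library was made from 69 to 195 cells for SGNs, from 86 to 125 cells for glia and from about 1200 cells for HCs. The sources used here did not say whether the 3 replicates of a group came from separate animals, so the p-values below measure the spread between libraries, which may be technical.

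Total counts ran from 10368240 to 37287489 per library with a median of 20384100, so that 3 counts, the floor used here for detection, corresponded to 0.0805 to 0.289 CPM (counts divided by the library total and scaled to a common size). Levels are given as TPM, a share of transcripts that adjusts for gene length and so allows genes to be compared with each other. A total RNA sample cannot tell fewer cells of a type from less RNA per cell. The labelled cell types carried their own markers: the summed level of 4 SGN markers was 100.5 to 659.1 TPM in the SGN libraries and 5.97 to 10.1 in HCs, that of 5 HC markers was 2387 to 2810 in HCs, and that of 3 glial markers was 442.5 to 944.7 in glia. Markers of other cells were present too, and their values stand beside the results they move with. In the SGN groups, replicate 1 held the highest sum of 5 connective tissue markers at each of the 5 ages, and HC libraries held the highest sums of 5 supporting cell markers, 284.6 to 322.6 TPM.

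Kir channels are tetramers that pass potassium more easily into the cell than out of it, so they hold the resting potential near the potassium equilibrium and, in some cells, carry potassium uptake. Their subunits fall into subfamilies with separate roles. Kir2 subunits (Kcnj2, Kcnj12, Kcnj4) form strong, constitutively open rectifiers; Kir3 subunits (Kcnj3, Kcnj6, Kcnj9) form channels opened by G proteins (GIRK channels); Kir6.2 (Kcnj11) forms the pore of ATP-sensitive channels; Kir4.1 (Kcnj10) and its partner Kir5.1 (Kcnj16) serve potassium handling in glia and epithelia; and Kir7.1 (Kcnj13) is a weak rectifier of ion-transporting epithelia. In the cochlea, Kir4.1 is best known from the stria vascularis, where it contributes to the endocochlear potential, and from satellite glia around the neurons. Kir2.1 (Kcnj2) is known for the inward rectifier current of HCs.

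The plot of levels in all libraries gives an overview. HCs held the highest summed level of the 10 members, 251.5 ± 8.93 TPM (SD, n = 3), glia held 165.9 ± 47.6, and the SGN groups held 25.4 ± 10.6 (E15.5), 31.5 ± 7.28 (P1), 66.8 ± 30.0 (P8), 81.8 ± 49.7 (P14) and 40.5 ± 5.44 (P30). On this scale the median gene was itself higher in HCs. Over the genes tested, the median log2 ratio of mean TPM was -1.43 for glia against HCs and -1.09 for P14 SGNs against HCs, where the fitted differences below have medians of -0.14 and -0.04. Ratios of TPM that involve HCs therefore lie on another scale than the fitted differences, and the higher sum in HCs is a level in TPM, not a tested difference. The 3 cell types did not draw on the same genes. Kcnj2, Kcnj13 and Kcnj16 were highest in HCs, Kcnj10 was highest in glia, each with no overlap with any other group, and Kcnj3, Kcnj9, Kcnj11 and Kcnj12 had their highest group means in SGNs.

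**Figure D1:**
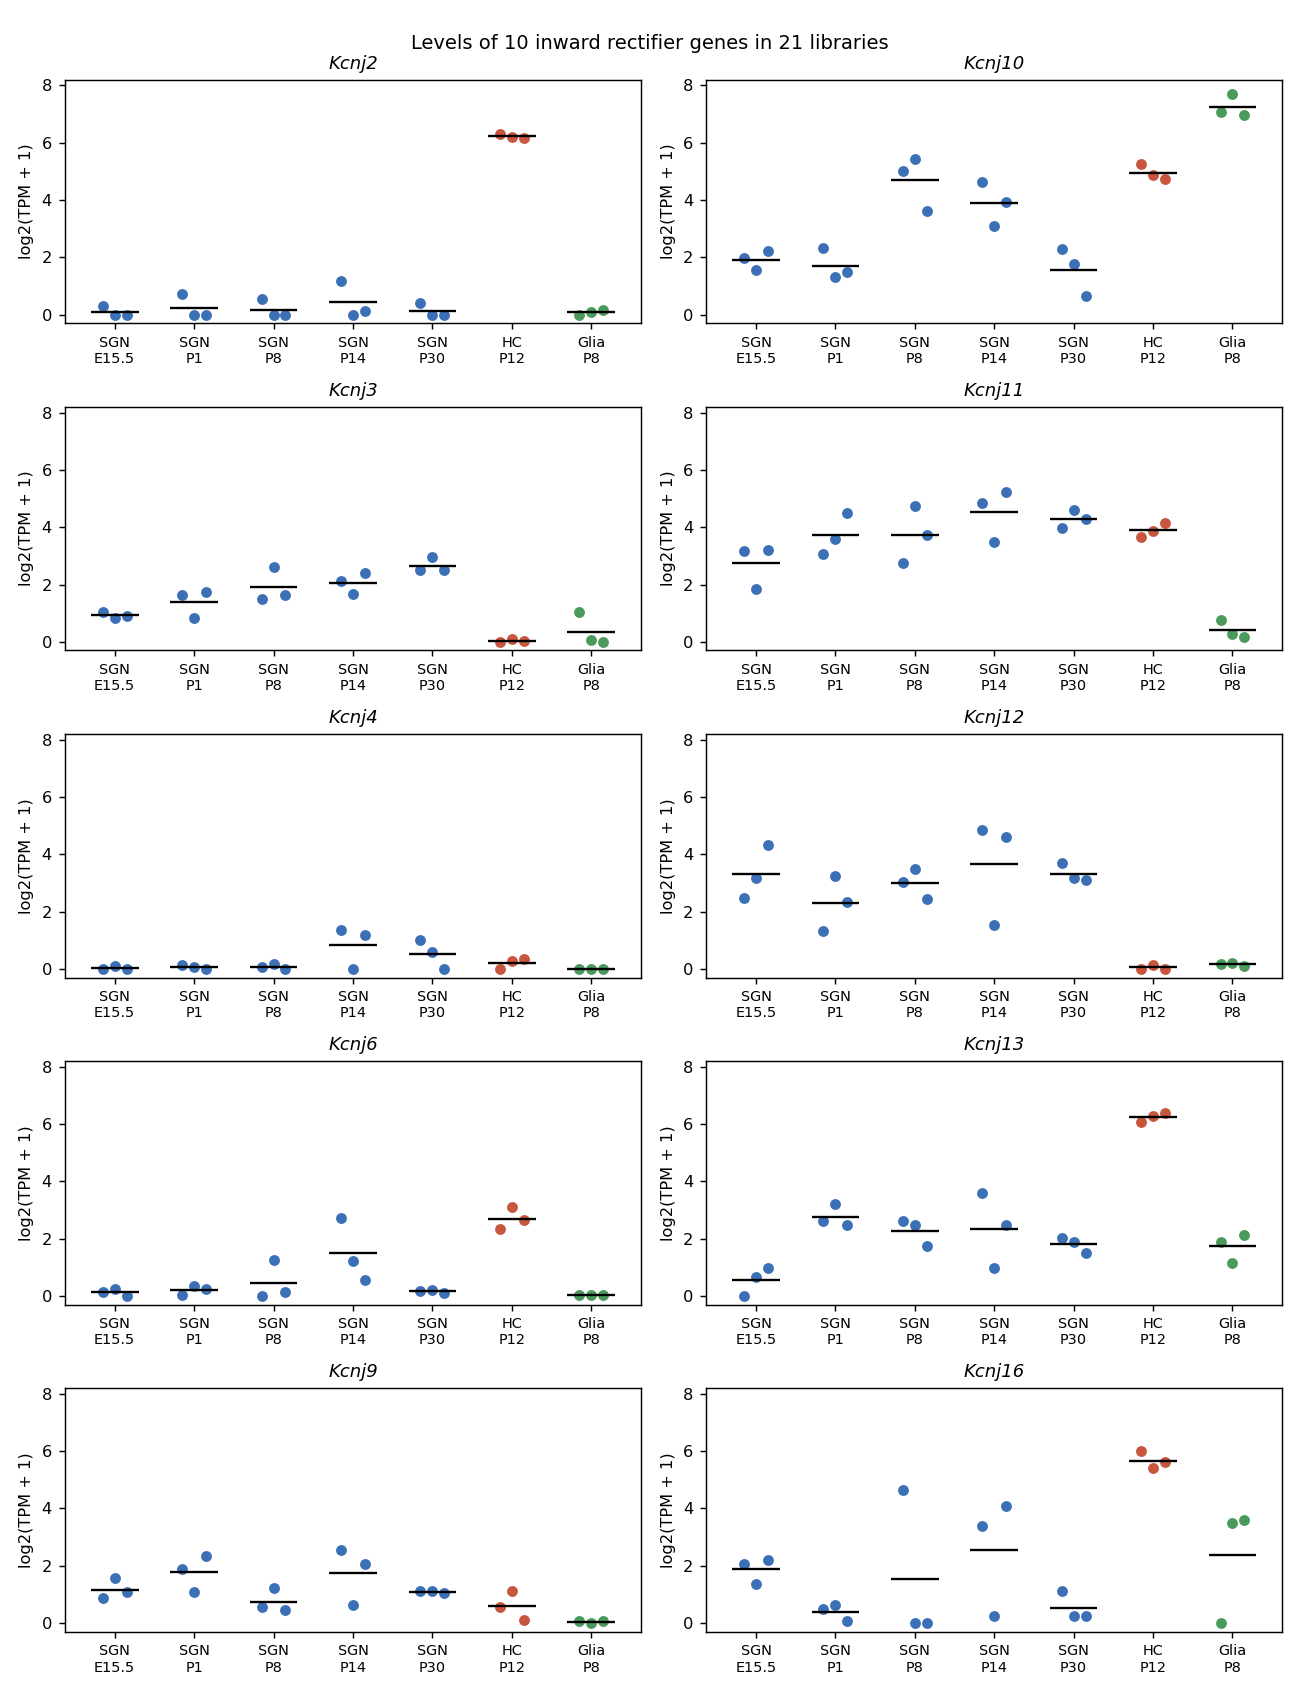
Levels of the 10 Kcnj members as log2(TPM + 1) in each of the 21 libraries, 1 panel per gene, with groups along the horizontal axis. Points are single libraries (blue SGN, red HC, green glia) and the short line is the mean of the log values. Kcnj2, Kcnj13 and Kcnj16 stand highest in the HC libraries and Kcnj10 in the glia libraries.

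The subfamily shares of the summed TPM differed accordingly, as the stacked bars show. Kcnj10 and Kcnj16 made up 97.7% of the sum in glia on average (range 96.6 to 99.2%), and Kcnj10 alone 93.4%. In HCs the sum was spread over Kcnj13 with 30.1%, Kcnj2 with 29.6%, Kcnj16 with 20.1% and Kcnj10 with 12%. In SGNs Kcnj11 was the largest single share at P1 (40.2%), P14 (33.3%) and P30 (46.7%), Kcnj12 was the largest at E15.5 (39.4%), and Kcnj10 was the largest at P8 (40.7%). The ranges between libraries of 1 age were wide, for example 14.4 to 38.5% for Kcnj11 at E15.5.

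**Figure D2:**
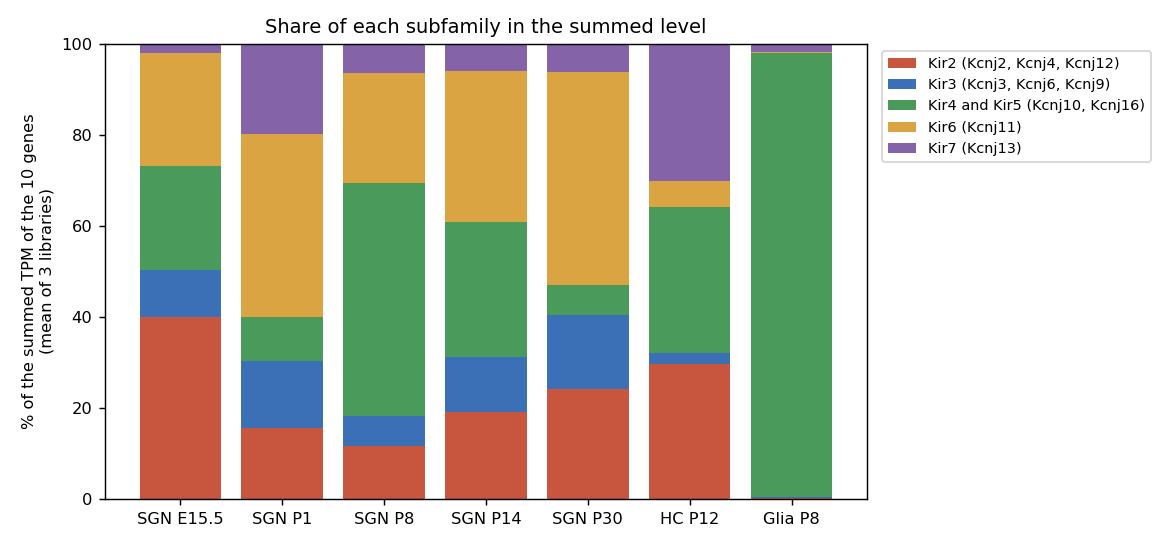
Mean share of the summed TPM of the 10 members taken by each Kir subfamily, in percent, for the 5 SGN ages, HCs and glia. Kir4 and Kir5 genes take 97.7% in glia, and the Kir6 gene takes 46.7% in SGNs at P30.

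The genes lie on 6 chromosomes of mm10, and a pair of them are neighbours in each of 2 places. Kcnj16 (chr11:110968033-111027968) and Kcnj2 (chr11:111066164-111076821) follow each other on the forward strand with 38195 bases between them. Both were highest in HCs. Kcnj9 (chr1:172320501-172329318, reverse strand) and Kcnj10 (chr1:172341210-172374085, forward strand) stand head to head with their starts 11892 bases apart, and their highest group means were in P14 SGNs and in glia. Kcnj13 lies at chr1:87386363-87394729 on the reverse strand, Kcnj3 at chr2:55435970-55598145 on the forward strand, Kcnj11 at chr7:46093953-46100764 on the reverse strand and Kcnj12 at chr11:61022564-61071131 on the forward strand.

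To set the regulatory sequence beside these levels, the 250 bases before the start site were read for the 9 members found in the RefSeq promoter table (GRCm38.p6), Kcnj11 not being among them. A single promoter was read per gene, although 4 were listed for Kcnj16 and 2 for Kcnj6. The start site used for Kcnj12 lies 43240 bases from the start of its gene model. Shown here, in the direction of transcription, are the 3 genes highest in HCs without overlap with another group, the glial gene Kcnj10 and the SGN gene Kcnj3. Every CAGCTG (an E-box of the kind that bHLH factors such as Atoh1 and Neurod1 can bind) and every TATAAA is in capitals.
Kcnj2 (chr11:111065914-111066163, forward strand): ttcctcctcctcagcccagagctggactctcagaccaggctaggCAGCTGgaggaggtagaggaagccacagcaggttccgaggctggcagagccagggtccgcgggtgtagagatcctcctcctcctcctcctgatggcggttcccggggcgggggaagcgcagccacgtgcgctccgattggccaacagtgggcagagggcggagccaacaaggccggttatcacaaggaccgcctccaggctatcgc
Kcnj13 (chr1:87394730-87394979, reverse strand): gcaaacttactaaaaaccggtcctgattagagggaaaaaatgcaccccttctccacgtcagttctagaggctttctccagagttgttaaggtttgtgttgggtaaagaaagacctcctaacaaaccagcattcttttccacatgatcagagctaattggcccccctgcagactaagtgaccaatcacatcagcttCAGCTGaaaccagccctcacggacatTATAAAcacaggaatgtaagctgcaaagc
Kcnj16 (chr11:110967783-110968032, forward strand): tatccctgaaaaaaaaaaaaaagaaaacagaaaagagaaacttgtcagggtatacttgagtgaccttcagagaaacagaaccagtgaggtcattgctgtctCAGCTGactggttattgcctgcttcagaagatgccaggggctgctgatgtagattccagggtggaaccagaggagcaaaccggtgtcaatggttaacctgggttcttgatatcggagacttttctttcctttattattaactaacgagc
Kcnj10 (chr1:172340960-172341209, forward strand): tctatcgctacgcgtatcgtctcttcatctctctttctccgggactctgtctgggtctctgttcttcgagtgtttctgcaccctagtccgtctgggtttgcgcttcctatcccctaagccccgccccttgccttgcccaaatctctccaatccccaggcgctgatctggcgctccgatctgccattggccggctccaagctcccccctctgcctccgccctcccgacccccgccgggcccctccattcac
Kcnj3 (chr2:55435720-55435969, forward strand): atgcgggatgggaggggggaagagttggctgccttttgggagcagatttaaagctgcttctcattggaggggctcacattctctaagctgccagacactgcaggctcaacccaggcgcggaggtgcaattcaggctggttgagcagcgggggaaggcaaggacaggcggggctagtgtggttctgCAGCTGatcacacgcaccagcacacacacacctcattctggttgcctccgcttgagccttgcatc

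Each of the 3 genes highest in HCs and Kcnj3 held 1 CAGCTG, which reads the same on both strands, and the other 5 members with a listed promoter held 0. Over the 32817 listed promoters of the same length 13% held it. TATAAA, searched on both strands, was in the promoters of Kcnj13 and Kcnj9, and in 12.4% of all. ACAAAG, the core that Sox factors can bind, also searched on both strands, was in none of the 9 and in 16.5% of all. The Kcnj10 and Kcnj2 promoters held 17 and 14 CG pairs and those of Kcnj13 and Kcnj16 held 3 each, beside a median of 6 over all promoters. A match in these windows describes letters only.

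Across ages, 8 of the 10 members passed the filter on low counts in the SGN libraries, meaning that all 3 libraries of some age exceeded a CPM of 1 (all but Kcnj2 and Kcnj4). Calls between ages needed a 2-fold change at a Benjamini-Hochberg adjusted p under 0.05 in limma-voom, adjusted over the 15113 genes tested. From E15.5 to P1, 1 of the 8 was called, Kcnj13, against 8.26% of all genes tested. Kcnj13 did not pass the filter at E15.5, so that its calls from that age had passed only where it was higher. From P1 to P8, 1 of the 8 was called, Kcnj10, against 7.44% of all genes. From P8 to P14 and from P14 to P30 limma-voom called 0 of the 8, against 0.536% and 0.0596% of all genes, with 3 members at an unadjusted p under 0.05 in each of the intervals. For P8 to P14 the edgeR quasi-likelihood and DESeq2 tests also called 0, and for P14 to P30 they called 0 and 1. From E15.5 to P30, 3 of the 8 were called, all higher at P30 (Kcnj3, Kcnj11 and Kcnj13), against 34.6% of all genes. An F test over the 5 ages, at an adjusted p under 0.05, called 3 of the 8 (Kcnj3, Kcnj10 and Kcnj11) against 37.8% of all genes. These shares were near those of all genes or rested on 1 gene, and comparisons that have an age in common share its libraries.

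Between cell types, 9 of the 10 members passed the filter over the 21 libraries (all but Kcnj4), and calls needed a 4-fold difference at an adjusted p under 0.01 over 17531 genes. At P8, 5 of the 9 differed between SGNs and glia, 4 higher in SGNs and 1 lower, against 20.9% of all genes. Between SGNs at P14 and HCs at P12, 5 of the 9 differed, 3 higher in SGNs and 2 lower, against 23.1% of all genes. Between glia at P8 and HCs at P12, 5 of the 9 differed, 1 higher in glia and 4 lower, against 24.4% of all genes. Most of the called members had passed the filter in only 1 of the 2 groups compared, the higher one, and a gene that passes only where it is high can hardly fail to differ. These were 4 of the 5 against glia (Kcnj3, Kcnj9, Kcnj11 and Kcnj12), 4 of the 5 for SGNs against HCs (Kcnj2, Kcnj3, Kcnj9 and Kcnj12) and 3 of the 5 for glia against HCs (Kcnj2, Kcnj6 and Kcnj11). Their counts and p-values are a description, and only Kcnj10 and Kcnj13 were called with both groups past the filter. The median log2 difference of the tested members was 0.75 for SGNs against glia beside 0.22 over all genes, 0.17 for SGNs against HCs beside -0.04, and -3.38 for glia against HCs beside -0.14. The first median is the value of Kcnj6, whose interval was -2.89 to 4.38. Glia held no more than 2 counts of Kcnj6, and against 3 counts there it became 3.45. That value rests on P8 replicate 2, with 1.40 TPM beside 0 and 0.0949 in the other P8 SGN libraries. HCs and glia each enter 2 of the 3 comparisons. With sample quality weights in voom, the calls of Kcnj3, Kcnj9, Kcnj11 and Kcnj12 against glia were lost (adjusted p 0.0213 to 0.155), as were those of Kcnj6, Kcnj11 and Kcnj13 between glia and HCs (0.0153 to 0.0975). SGNs at P14 were the nearest in age to the P12 HCs, and age and cell type cannot be told apart there or between glia and HCs.

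**Figure D3:**
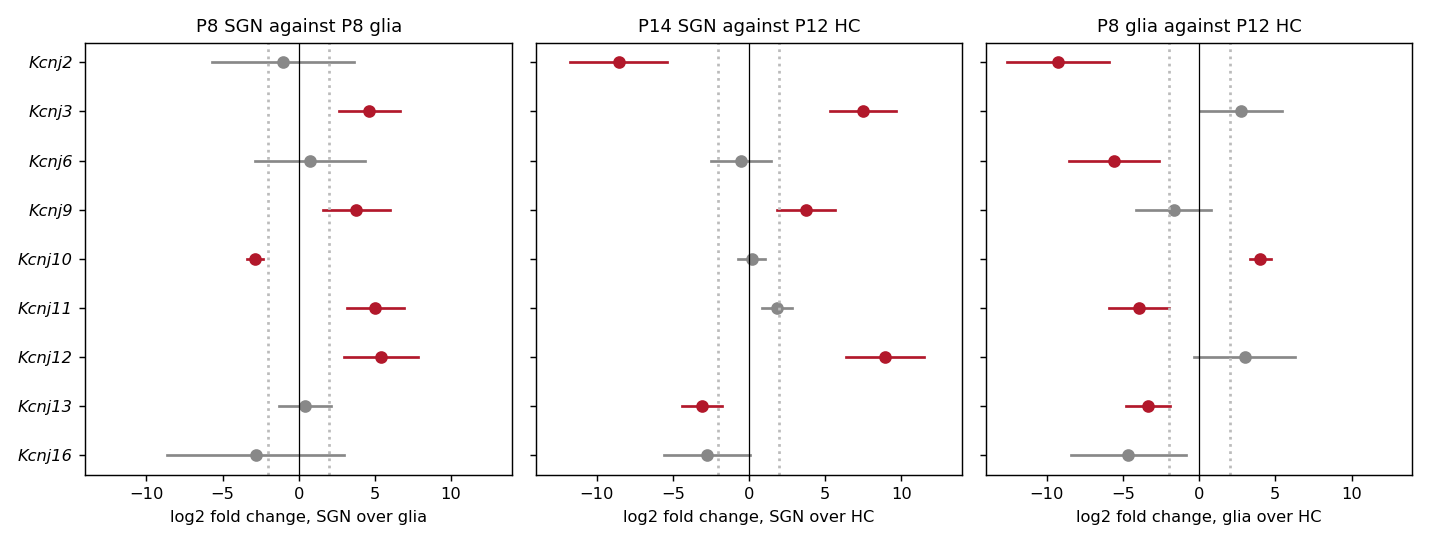
Log2 difference with its 95% interval (limma-voom) for the 9 members tested between cell types, in 3 panels for P8 SGNs against P8 glia, P14 SGNs against P12 HCs, and P8 glia against P12 HCs. Red marks members past the 4-fold limit (dotted lines) at an adjusted p under 0.01, which are 5 in each panel.

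Kcnj2, which encodes Kir2.1, was detected at a high level in HCs only. Its levels were 78.8, 73.5 and 70.8 TPM in the 3 HC libraries, with a mean of 74.4 ± 4.08. Glia held 0, 0.0716 and 0.117 TPM, and no SGN library exceeded 1.26 TPM. The HC libraries thus stood clear of all others. The fitted log2 difference was -9.30 for glia against HCs (SE 1.61, adjusted p = 1e-04) and -8.57 for P14 SGNs against HCs (SE 1.53, adjusted p = 0.000119), values that describe a gene which passed the filter in HCs alone. The edgeR and DESeq2 tests gave adjusted p-values of 0.0264 and 0.0807 for SGNs against HCs, and 0.0104 and 0.0234 for glia against HCs, which lie past the 0.01 limit. Without P14 replicate 1 the difference from SGNs was -10.4.

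What Kcnj2 there was in SGNs lay almost wholly in replicate 1 of each age. The 5 replicate 1 libraries held 264 counts together, and the other 10 SGN libraries held 4. From the youngest to the oldest age, replicate 1 had 0.228, 0.668, 0.469, 1.26 and 0.317 TPM, whereas all other SGN libraries were at 0 except P14 replicate 3 at 0.0951. The same 5 libraries had connective tissue marker sums (Col1a1, Col1a2, Dcn, Otos and Coch) of 47.8, 132.7, 95.8, 178.3 and 63.6 TPM, against 0.566 to 29.8 in the other 10. Of these markers, Otos reached 0.560 TPM in replicate 1 libraries and 1.73 in the others. Glia libraries had sums of 154.7, 295.5 and 216.4 TPM with Kcnj2 at only 0, 0.0716 and 0.117. Among endothelial and pericyte markers, Cldn5 and Kdr gave 402 and 2207 counts in the 5 replicate 1 libraries, against 2 each in the other 10. Pecam1 gave 2046 against 174, Rgs5 1791 against 33, and Pdgfrb 1668 against 1307. Of the Cldn5 and Kdr counts, 328 and 1630 lay in P1 replicate 1. Both genes were at 0 in all P14 SGN libraries, although P14 replicate 1 held the most Kcnj2, and Cldn5 was at 0 at E15.5. Among blood markers, Hbb-bs gave 1631 counts in the replicate 1 libraries and 0 in the other SGN libraries. Hba-a1 gave 554 against 74, and Alas2 gave 224 against 338. Hbb-bs was at 0 in all P14 SGN libraries too. The part of connective tissue, vascular and blood cells in the Kcnj2 reads was not tested.

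**Figure D4:**
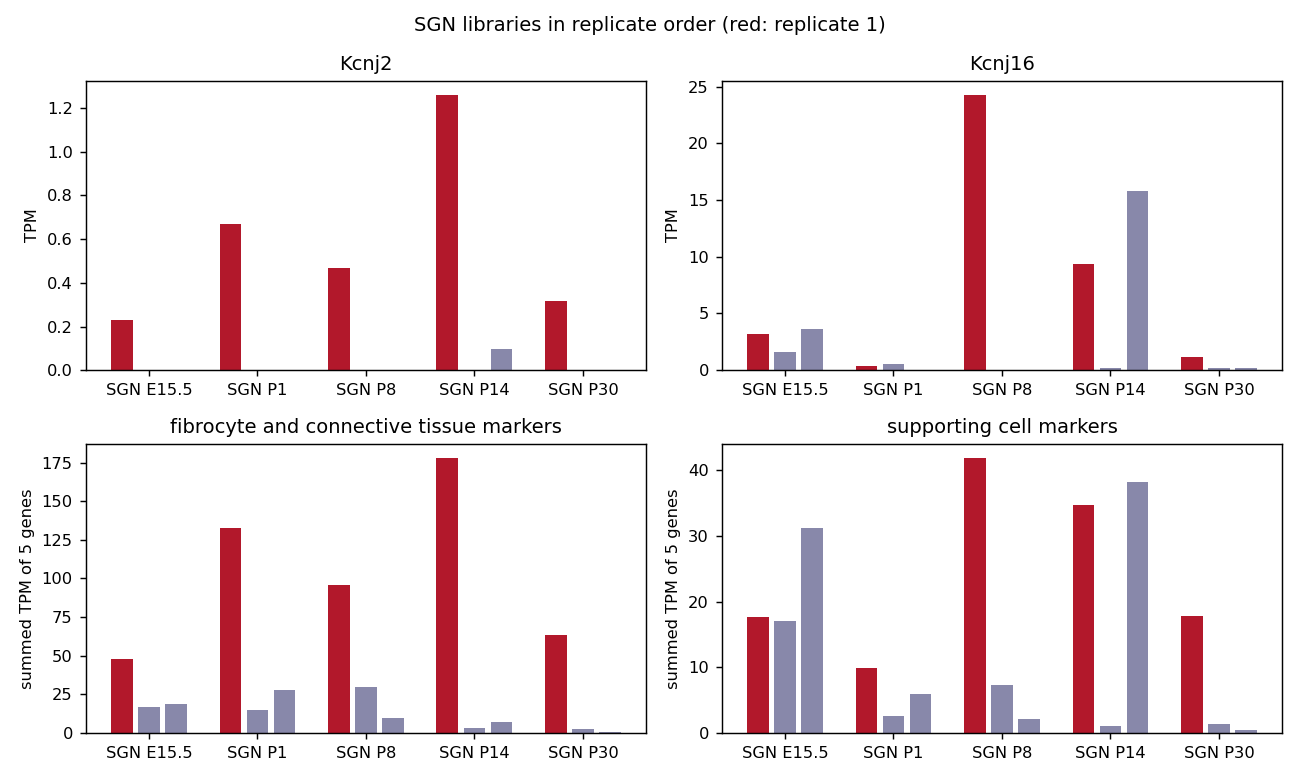
Kcnj2 and Kcnj16 levels in the 15 SGN libraries, in TPM, each above the summed TPM of a marker list, connective tissue for Kcnj2 and supporting cells for Kcnj16. Bars are single libraries and red marks replicate 1 of each age. Kcnj2 appears in the red bars, up to 1.26 TPM at P14.

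Kcnj12, which encodes the second strong rectifier Kir2.2, had the opposite pattern. SGN libraries held 4.55, 8.09 and 19.1 TPM at E15.5, 1.51, 8.46 and 4.1 at P1, 7.21, 10.3 and 4.46 at P8, 28.0, 1.90 and 23.1 at P14, and 12, 7.95 and 7.58 at P30. HCs held 0, 0.114 and 0 TPM, which is at most 2 counts, and glia 0.135, 0.142 and 0.0772. All 15 SGN libraries were above all HC and glia libraries, while the SGN ages overlapped one another. Measured against 3 counts in each HC library, the mean TPM of Kcnj12 was at least 95.4-fold higher in SGNs at P14 and at least 25.3-fold higher at P1. The lowest libraries of these ages held 1.90 and 1.51 TPM. In the fit, Kcnj12 was higher in P14 SGNs than in HCs by 8.94 on the log2 scale (adjusted p = 6.78e-06). At P8 it was higher in SGNs than in glia by 5.40 on the log2 scale (SE 1.16, adjusted p = 0.000816), and this call was lost without glia replicate 3 (adjusted p = 0.0103). No change between ages was called (adjusted p = 0.142 over all ages, a test that called it only without P14 replicate 2), the lowest value being that from E15.5 to P1, -1.95 with an interval of -3.59 to -0.32 (adjusted p = 0.109). Kcnj2 and Kcnj12, 2 genes for the same kind of current, were thus found apart, the first in HCs and the second in SGNs.

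Kcnj4, the gene of Kir2.3, passed the filter in no fit. It was at or under 3 counts in 13 of the 21 libraries, among them all 3 of glia. The highest values were 1.56 and 1.26 TPM in P14 replicates 1 and 3 and 1.00 TPM in P30 replicate 1, with 0 in P14 replicate 2 and P30 replicate 3. The groups overlapped throughout, so no order of groups could be given at this depth.

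Among the GIRK subunits, Kcnj3 (Kir3.1) rose with age in SGNs. It stood at 1.07, 0.768 and 0.889 TPM at E15.5, 2.14, 0.772 and 2.35 at P1, 1.82, 5.12 and 2.11 at P8, 3.33, 2.17 and 4.32 at P14, and 4.74, 6.75 and 4.67 at P30. The mean went from 0.910 ± 0.153 to 5.39 ± 1.18 TPM, and the P30 libraries lay above all E15.5, P1 and P14 libraries and overlapped those of P8. From E15.5 to P30 the log2 change was 2.69 (SE 0.49, 95% interval 1.66 to 3.73, adjusted p = 0.000412), and this call held under every alternative tried. No step between neighbouring ages was called, the largest being 1.14 from P1 to P8 (adjusted p = 0.111, called with sample quality weights) and 1.08 from P14 to P30 (adjusted p = 0.443).

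HCs held 0, 0.0600 and 0.0289 TPM of Kcnj3, at most 2 counts, so that SGNs at P14 were at least 33.5-fold higher (adjusted p = 6.36e-06) and those at P30 at least 55.2-fold higher in level. In glia, replicate 1 held 1.04 TPM (88 counts) and the others 0.0373 and 0, and that library also had the highest SGN marker sum of the glia group, 63.5 TPM against 6.57 and 7.06. At P8 Kcnj3 was higher in SGNs than in glia by 4.64 on the log2 scale (SE 0.955, adjusted p = 0.00057). The difference was 6.58 without glia replicate 1, and without glia replicate 3 it was 3.14 and no longer called (adjusted p = 0.0124). It was 2.64 in the edgeR test (adjusted p = 0.0449). Between glia and HCs the difference was not called by limma-voom (adjusted p = 0.0885), while edgeR and DESeq2 gave adjusted p-values of 0.00394 and 0.000216 with glia higher. The part of neuronal RNA in glia replicate 1 was not tested.

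Kcnj9 (Kir3.3), a GIRK subunit that works in tetramers with others, was found in every SGN library, from 0.367 TPM in P8 replicate 3 to 4.85 TPM in P14 replicate 1. Its group means were 1.3, 2.63, 0.720, 2.87 and 1.14 TPM from E15.5 to P30 and did not follow age in 1 direction. No change between ages was called (adjusted p = 0.299 over all ages). Glia had the lowest mean, with 0.0575, 0 and 0.0495 TPM, below every SGN library, and HCs held 0.471, 1.17 and 0.0704. HC replicate 3 held only 2 counts, beside 4 and 2 in glia replicates 1 and 3, so these libraries could not be ordered. The fitted log2 difference of glia from HCs was -1.69 with an interval of -4.135 to 0.757 (adjusted p = 0.254). Kcnj9 was higher in P8 SGNs than in glia by 3.78 (SE 1.06, adjusted p = 0.00657) and higher in P14 SGNs than in HCs by 3.74 (SE 0.924, adjusted p = 0.00238) on the log2 scale. The first call was lost when any 1 of the 6 libraries was left out (adjusted p 0.0106 to 0.0537), and the second was lost without P14 replicate 1 (0.0142) or HC replicate 3 (0.0349), with edgeR (0.0139) and with library size alone as scaling (0.0114).

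Kcnj6 (Kir3.2), the third GIRK subunit, was highest in HCs, at 4.07, 7.70 and 5.25 TPM. In SGNs it reached 5.64, 1.31 and 0.490 TPM at P14 and 1.40 TPM in P8 replicate 2, and stayed at or below 0.264 TPM in the other 11 SGN libraries. P14 replicate 1 thus lay inside the HC range, and the neighbouring groups overlapped. Each glia library held 2 counts. In TPM, the HC mean was at least 124-fold higher than 3 counts in each glia library would be. On the scale of the fit, the log2 difference of glia from HCs was -5.58 (SE 1.43), smaller than this ratio of TPM. The fit called the difference (adjusted p = 0.00327), but not without any 1 glia library or HC replicate 2 (adjusted p 0.0105 to 0.0209). The interval for P14 SGNs against HCs, -2.47 to 1.46 on the log2 scale, left the direction undecided (adjusted p = 0.694). Changes with age in SGNs were large and uncertain, 4.40 from P8 to P14 (interval 1.14 to 7.67, adjusted p = 0.229) and -3.50 from P14 to P30 (adjusted p = 0.666). The F test over ages called it without P14 replicate 3, as did the likelihood ratio test of DESeq2 on all libraries.

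GIRK channels answer to receptors that act through inhibitory G proteins, and 31 genes of that pathway (receptors, G protein subunits, RGS proteins and KCTD and sorting partners) were set beside the subunits. From E15.5 to P30, 9 of the 26 tested rose and 6 fell, with a median log2 change of 0.50 beside -0.01 for all genes, of which 34.6% were called. Gabbr2, the GABA-B receptor subunit that couples to G proteins, went from 16.5 ± 3.28 to 84.8 ± 17.4 TPM (log2 change 2.52, adjusted p = 3.68e-08), and already rose from E15.5 to P1 by 1.78 (adjusted p = 3.01e-05). Rgs7bp, which anchors the RGS7 complex at the membrane, rose by 4.27 (adjusted p = 1.57e-07), whereas the G protein subunit Gng2 fell by 4.26 (adjusted p = 5.82e-07) and the cannabinoid receptor gene Cnr1 fell by 2.25 (adjusted p = 0.00021). Between neighbouring ages 6 rose and 1 fell up to P1 (8.26% of all genes called), 2 rose and 2 fell from P1 to P8 (7.44% of all genes), and 0 of 26 were called in each later step.

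Between cell types, 12 of 27 were higher and 2 lower in P8 SGNs than in glia, with a median difference of 3.49 beside 0.22 for all genes, of which 20.9% were called. In P14 SGNs 15 were higher and 0 lower than in HCs, with a median of 2.92 (2.71 with genes at the floor set at their bound) beside -0.04 for all genes, of which 23.1% were called. Gabbr2 was at 0.363 ± 0.342 TPM in HCs and at 94.1 ± 47.5 in P14 SGNs (log2 difference 9.68, adjusted p = 2.37e-08). Kctd12, a GABA-B receptor partner, was instead lower in SGNs than in glia (log2 difference -4.06, adjusted p = 0.000283). Glia against HCs gave 7 higher and 1 lower, with a median of 1.03 (1.11 with bounds) beside -0.14 for all genes, of which 24.4% were called. As with the members, a list gene that passed the filter only in the higher group can hardly fail to differ. HC libraries held at most 24 counts of Gabbr2 and at most 4 of Kctd8 and of Rgs17. The counts, medians and p-values are therefore a description, here and for the other background lists.

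Kcnj11, the pore subunit Kir6.2 of ATP-sensitive potassium channels, was the most abundant member in SGNs at 3 of the 5 ages by its mean share. SGN libraries held 8.07, 2.55 and 8.24 TPM at E15.5, 7.44, 10.9 and 21.4 at P1, 5.80, 25.4 and 12.4 at P8, 27.6, 10.2 and 36.8 at P14, and 14.8, 23.1 and 18.5 at P30. All P30 libraries were above all E15.5 libraries, and the ages between overlapped. From E15.5 to P30 Kcnj11 rose by 1.90 on the log2 scale (SE 0.47, interval 0.91 to 2.89, adjusted p = 0.00426), a call that held under every alternative, and no step between neighbouring ages was called. The F test over ages called it too (adjusted p = 0.0141), but not without E15.5 replicate 2, with library size alone as scaling or with quality weights.

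Glia were lowest in Kcnj11, at 0.705, 0.212 and 0.115 TPM, below all other libraries. HCs held 11.8, 13.5 and 16.8 TPM, within the SGN range and 40.8 times the glia mean in TPM. The gene was higher in P8 SGNs than in glia by 5.05 on the log2 scale (SE 0.903, adjusted p = 0.000147) and lower in glia than in HCs (log2 difference -3.96, SE 0.947, adjusted p = 0.00198), the second call being lost without glia replicate 2 (0.015) or 3 (0.0209). Between P14 SGNs and HCs the difference was 1.84 (SE 0.46, adjusted p = 0.00261), which is under the 4-fold limit. Abcc8, the sulfonylurea receptor SUR1 that joins Kir6.2, was the only one of its pair to be tested in either fit. Abcc8 rose from 3.54 ± 0.838 TPM at E15.5 to 7.47 ± 1.96 at P30 (log2 change 1.17, adjusted p = 0.00975), was higher in P8 SGNs than in glia by 3.34 (adjusted p = 0.00122), and was lower in glia than in HCs (log2 difference -2.76, adjusted p = 0.0068). Abcc8 and Kcnj11 were thus called in the same 3 of these comparisons and in the same directions.

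Kcnj10, the gene of Kir4.1, dominated the glia. Its levels were 132, 209 and 125 TPM there, with a mean of 155.3 ± 46.4, against 37.6, 28.0 and 25.5 TPM in HCs. The glia mean was 5.11 times that of HCs, 5.47 times that of P8 SGNs and 67.9 times that of P30 SGNs in TPM. Between P14 SGNs and HCs the fitted difference was 0.17 with an interval of -0.71 to 1.05 (adjusted p = 0.772). Kcnj10 was higher in glia than in HCs by 4.0 on the log2 scale of the fit (SE 0.328, adjusted p = 1.24e-08). At P8 it was lower in SGNs than in glia (log2 difference -2.88, SE 0.254, adjusted p = 4.06e-08). Both calls held under every alternative tried.

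In SGN libraries Kcnj10 went up between P1 and P8 and was low again at P30. The values were 2.98, 1.92 and 3.66 TPM at E15.5, 3.98, 1.5 and 1.79 at P1, 31.1, 42.5 and 11.4 at P8, 24.0, 7.66 and 14.3 at P14, and 3.9, 2.4 and 0.562 at P30. The lowest P8 library was above all libraries of E15.5, P1 and P30, and P8 and P14 overlapped. The log2 change from P1 to P8 was 3.83 (SE 0.527, interval 2.72 to 4.94, adjusted p = 0.000191) and was called under every alternative. From P14 to P30 it was -2.53 (SE 0.551, interval -3.69 to -1.36), with an unadjusted p of 0.000271 and an adjusted p of 0.136. With the replicate number as a block it was -2.38 and called (adjusted p = 0.0107), and DESeq2 and voom with sample quality weights called it as well.

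Glial markers were present in the SGN libraries too. The summed TPM of Sox10, Foxd3 and Fabp7 was 3.38 to 149.5 at E15.5, 11.8 to 25.0 at P1, 22.6 to 59.9 at P8, 4 to 36.9 at P14 and 0.485 to 8.61 at P30. The sum was thus higher at P8 than at P30, overlapped between P1 and P8, and reached its highest values at E15.5, where Kcnj10 was low. Set against its mean in glia, Kcnj10 stood at 18.3% in the P8 SGNs, while Sox10 stood at 7.75%, Fabp7 at 5.50% and Foxd3 at 2.36%. At P14 Kcnj10 stood at 9.86% and the 3 markers at 1.77 to 4.43%. At E15.5 Kcnj10 stood at 1.84% and Fabp7, the gene behind most of the high sum there, at 12.7%. At P1 Kcnj10 stood at 1.56% and the markers at 0.520 to 3.12%, and at P30 at 1.47% and 0.0936 to 0.636%. Mean Kcnj10 was therefore higher than that of each of the 3 markers on this scale at P8, P14 and P30 and not at E15.5 or P1. In E15.5 replicate 1 it was above all 3, and in the other 2 replicates below. The part of glial RNA in its level in SGN libraries was not tested.

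**Figure D5:**
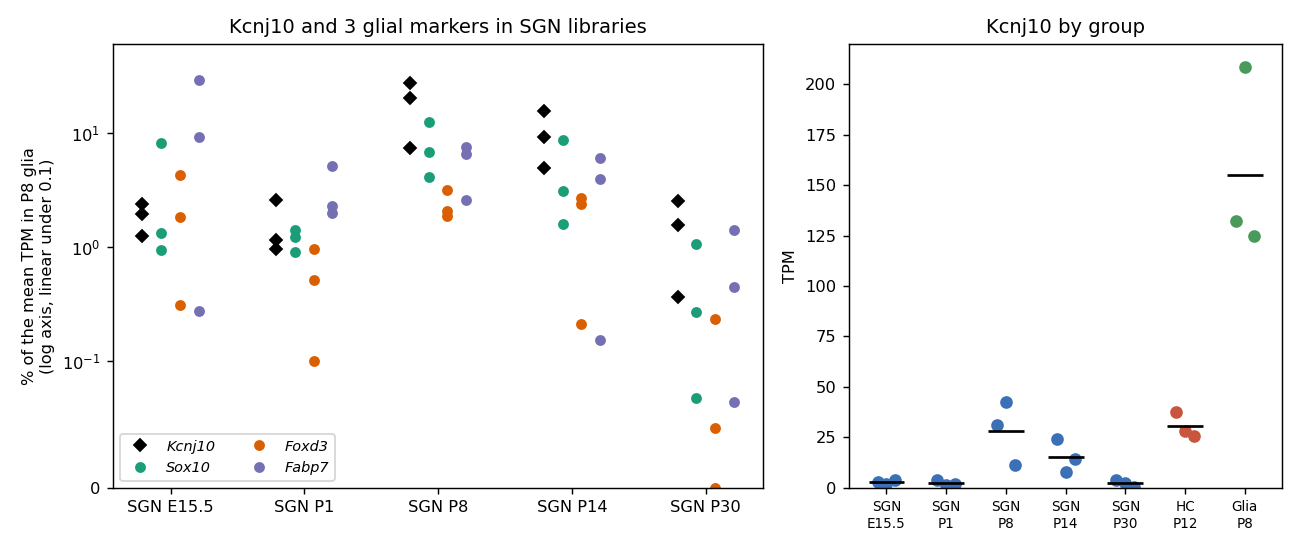
Left, Kcnj10 and 3 glial markers in each SGN library as a percentage of their mean TPM in P8 glia, on a log axis that is linear below 0.1. Right, Kcnj10 TPM in each library by group with the group mean. In the P8 SGN libraries Kcnj10 stands at 7.36 to 27.4% of its glia mean.

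In glia, Kir4.1 works beside the dystrophin complex, water channels, gap junctions and glutamate clearance, and 10 genes of these were set beside Kcnj10. From P1 to P8, 3 of the 10 rose in SGN libraries and 0 fell, with a median of 0.83 beside -0.01 for all genes, of which 7.44% were called. These were Dag1 (dystroglycan, log2 change 1.05, adjusted p = 0.00529), Dmd (dystrophin, 2.38, adjusted p = 0.000863) and Slc1a3 (a glutamate transporter, 2.25, adjusted p = 0.0394). Of the 3, Slc1a3 is also on the supporting cell list. Dag1 and Dmd were also lower in P8 SGNs than in glia (log2 differences -2.84 and -3.93). They were the only 2 of the 10 called there, against 20.9% of all genes. Glia exceeded HCs in the same pair (3.07 for Dag1 and 6.68 for Dmd), while Aqp4, the water channel that accompanies Kir4.1 in astrocytes, was lower in glia than in HCs (-4.81, adjusted p = 0.000814), at 0.0684 ± 0.0404 TPM in glia and 6.52 ± 1.81 in HCs. In all, 2 of the 10 were higher and 2 lower in glia than in HCs, against 24.4% of all genes called. In P14 SGNs 0 were higher and 2 lower than in HCs, against 23.1% of all genes.

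Kcnj16, whose product Kir5.1 forms channels together with Kir4.1, did not follow Kcnj10 between glia and HCs. Among SGN ages the means of both genes were highest at P8 and P14, but single libraries differed. P8 replicate 2 held the most Kcnj10 of the SGN libraries, 42.5 TPM, and no Kcnj16. HCs held 62.6, 41.6 and 47.9 TPM, above all other libraries, and glia held 0, 10.4 and 11.2. In SGNs the libraries of 1 age ran far apart, with 24.3, 0 and 0 TPM at P8 and 9.36, 0.196 and 15.8 at P14, against 3.15, 1.59 and 3.60 at E15.5, 0.410, 0.552 and 0.0541 at P1, and 1.16, 0.183 and 0.193 at P30. No comparison called Kcnj16 in the limma-voom fits as set up. It was called from E15.5 to P1 and to P30 when only the 6 libraries compared were fitted, over all ages without P8 replicate 1 or P14 replicate 2, between P8 SGNs and glia without glia replicate 1, and between HCs and the mean of the 5 SGN ages. The log2 difference of P14 SGNs from HCs was -2.75 with an interval of -5.57 to 0.06 (adjusted p = 0.104), and that of glia from HCs was -4.65 (adjusted p = 0.0409), past the limit of 0.01.

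The summed level of the supporting cell markers Gjb2, Gjb6, Otoa, Tectb and Slc1a3 was high in the same libraries. It was 284.6 to 322.6 TPM in HCs, 42.0, 7.23 and 2.10 in the 3 P8 SGN libraries, 34.7, 1.13 and 38.2 in those of P14, and 8.84, 104.2 and 42.3 in those of glia. Within P8 SGNs, P14 SGNs and glia, Kcnj16 was at 0 or 0.196 TPM in the libraries where that sum was low, and higher where it was high. The other SGN ages fitted less well. At E15.5 the sum was 17.63, 16.98 and 31.3 TPM, beside only 3.15, 1.59 and 3.60 TPM of Kcnj16. In P30 replicate 1 it was 17.8 beside 1.16. Both were low at P1, with sums of 2.635 to 9.891 and at most 0.552 TPM of Kcnj16. In P30 replicates 2 and 3 the sums were 1.38 and 0.502, beside 0.183 and 0.193. Single markers did not all follow Kcnj16 at P8, at P14 or in glia either. At P8, Gjb6 and Slc1a3 were at 1.36 and 4.96 TPM in replicate 1 and at 1.55 and 5.28 in replicate 2, where Kcnj16 was 0. At P14, Otoa was at 0.276 TPM in replicate 3 and Tectb at 0.680 in replicate 1, 2 libraries with Kcnj16, and in glia Otoa was highest, at 3.58 TPM, in the replicate without Kcnj16. Among the glial markers, Sox10 stood at 15.6% of its glia mean in HC libraries, Foxd3 at 1.37% and Fabp7 at 3.48%. The summed level of Dct, Tyr, Pmel and Mlana, markers of the intermediate cells of the stria vascularis, was 18.7 to 27.9 TPM in HC libraries, of which Dct made up 16.9 ± 3.43, against 3.86 to 14.2 in glia and at most 2.06 in SGNs. The part of supporting cells and of intermediate cells in the Kcnj16 and Kcnj10 levels of HC libraries was not tested.

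Kcnj13, the gene of Kir7.1, was an HC gene in these libraries. It reached 65.7, 77.5 and 83.5 TPM in HCs, with a mean of 75.6 ± 9.04, and at most 11 TPM elsewhere. HC levels were 13.7 times those of P14 SGNs and 30.8 times those of glia in mean TPM, with no overlap. Kcnj13 was lower in P14 SGNs than in HCs (log2 difference -3.08, SE 0.624, adjusted p = 0.000417) and lower in glia than in HCs (-3.38, SE 0.692, adjusted p = 0.000526). The first was not called by edgeR (adjusted p = 0.0123) and the second not with sample quality weights (0.0153). Between P8 SGNs and glia the interval was -1.26 to 2.09 (adjusted p = 0.704).

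With age, Kcnj13 was lowest in SGNs at E15.5, with 0, 0.589 and 0.965 TPM, below all later libraries. It then stood at 5.17, 8.21 and 4.61 at P1, 5.12, 4.55 and 2.39 at P8, 11, 0.978 and 4.58 at P14, and 3.06, 2.69 and 1.83 at P30. The increase from E15.5 to P1 was 3.69 on the log2 scale (SE 1.12, interval 1.32 to 6.07, adjusted p = 0.0437) and that from E15.5 to P30 was 3.15 (SE 1.17, adjusted p = 0.0394). These calls were close to the limit. The first was 2.33 without E15.5 replicate 1, the library with no Kcnj13 count (adjusted p = 0.127), and it was also lost without E15.5 replicate 3, P1 replicate 1 or 2, P8 replicate 2 or 3, P14 replicate 3 or any P30 library (adjusted p 0.0523 to 0.127). It was lost under 6 of the 10 other alternatives too, edgeR among them (adjusted p = 0.0555). The second was 1.78 without E15.5 replicate 1 (adjusted p = 0.163), and was lost without E15.5 replicate 3 or any P30 library and under the same 6 alternatives too.

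HC markers were present in the SGN libraries as well, with a summed TPM of 12.6 to 29.9 at E15.5, 53.0 to 128.5 at P1, 27.8 to 53.6 at P8, 31.8 to 189.7 at P14 and 32.7 to 47.5 at P30. Relative to the HC mean, Kcnj13 stood in SGNs at 0.685, 7.93, 5.32, 7.32 and 3.34% from the youngest to the oldest age. Pou4f3, the HC transcription factor, stood at 0.322, 4.01, 2.45, 3.82 and 1.70% at the same ages, and Otof, the HC exocytosis gene otoferlin, at 0.183, 1.79, 0.368, 3.01 and 1.03%. Gfi1, also a transcription factor of HCs, stood at 0.119, 1.43, 0.704, 1.26 and 0.604%. The myosin gene Myo6 stood at 2.47, 6.66, 4.34, 4.88 and 2.72%, and the myosin gene Myo7a at 3.47, 4.52, 2.26, 3.35 and 1.82%. Like Kcnj13, 4 of the 5 markers were lowest at E15.5, whereas Myo7a was lowest at P30. Kcnj2, the other member at an HC level over 70 TPM, stood at 0.102 to 0.608%. The part of HC RNA in the Kcnj13 level of SGN libraries was not tested. In the gene model, 623 of the 1270 exon bases of Kcnj13 also lie in exons of Gigyf2 on the other strand, and Gigyf2 was at 30.3 ± 2.73 TPM in HCs and 8.18 to 15.1 TPM on average in the other groups. Whether reads were counted by strand was not given in the sources used here, so reads of the shared bases could belong to either gene.

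The last list held 14 genes around Kir2 channels, for membrane scaffolds that hold them in place and for the synthesis of the lipid PIP2, which all Kir channels need. From E15.5 to P30, 4 of the 13 tested rose and 5 fell, with a median of -0.67 beside -0.01 for all genes, of which 34.6% were called. Apba1 (an adaptor of the Lin7 and Cask complex) rose by 2.28 (adjusted p = 6.2e-07), Lin7b rose by 3.11 (adjusted p = 0.00661), Pi4ka (a kinase at the start of PIP2 synthesis) rose by 1.18 (adjusted p = 0.000185), and Flna (filamin A) fell by 3.25 (adjusted p = 1.44e-05). Flna was the 1 gene of the list called from P1 to P8, where it fell by 1.41. Of the 13, 3 were higher and 1 lower in P8 SGNs than in glia (20.9% of all genes called), 2 were higher and 1 lower in P14 SGNs than in HCs (23.1%), and 1 was higher and 2 lower in glia than in HCs (24.4%).

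The other 5 Kcnj genes of the table were low throughout. Kcnj14 (Kir2.4) was the only one tested and was called in no comparison, with group means of 0.189 to 2.65 TPM. Kcnj1, Kcnj5, Kcnj8 and Kcnj15 had no group mean above 0.675 TPM, and Kcnj8, the Kir6.1 pore subunit of vascular cells, was highest in E15.5 SGNs at 0.644 ± 0.944 TPM.

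The genes most alike in pattern were searched over the 21 libraries, by Pearson's r of log2(TPM + 1), for the 8 members whose group means spanned at least 2 log2 units. For Kcnj2 they were Rspo3 (r = 0.997), Spata17 (0.997) and Vwa3b (0.996), and for Kcnj13 they were Acbd7 (0.983), Pou4f3 (0.981) and Kcna10 (0.98). For Kcnj10 they were Gas2l3 (0.965), Megf10 (0.958) and Ttyh1 (0.956), and for Kcnj16 they were Prom2 (0.939), Ces1d (0.937) and Fam107a (0.932). For Kcnj3 they were Tspan7 (0.956), Kcns1 (0.951) and Slc24a2 (0.95), and for Kcnj11 they were Rragb (0.979), Amph (0.975) and Mapk10 (0.971). Kcne2 led for Kcnj6 (0.947) and Armh4 for Kcnj12 (0.894). The points share libraries and fall by cell type, so a high r mostly restates which type is high, and ranking by Spearman's rho instead gave at most 1 of the same 3 genes for 7 of the 8 members.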

How the data were processed

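SGN, HC and glia libraries (PicoPure RNA, Ovation RNA-Seq V2 amplification) were used as deposited. The deposited table held raw read counts per gene; per the labels the authors aligned reads to mm10 with STAR 2.4.0i and counted them with featureCounts. The strand setting was not given in the sources used here. A median of 67.9% of counts from 1 to 20 were even, so both mates of a pair may have been counted, and floors and intervals cover counting error only. No library pair was identical (0 pairs), and replicates correlated at r = 0.888 to 0.986 in log2(CPM + 1). TPM was computed here from the deposited counts and gene lengths, and symbols came from GENCODE M21.

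Genes whose CPM exceeded 1 in every library of some group were tested with TMM scaling and limma-voom (R 4.3.3, limma 3.58.1, edgeR 4.0.16), over the 15 SGN libraries between ages and over all 21 between cell types. The study's thresholds were used, 2-fold at adjusted p under 0.05 and 4-fold at adjusted p under 0.01. The code was tested on simulated data. The alternatives were size factors of DESeq2 1.42.0 or library size alone as scaling, the edgeR quasi-likelihood and DESeq2 tests, sample quality weights, no filter, no mitochondrial genes, a replicate block, other thresholds, the mean of the 5 SGN ages, the 6 libraries compared alone, and each library left out in turn. Leaving out replicate 1 of the 5 SGN ages together was added after seeing the data.

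All 10 members are named, then genes of 5 background lists that were called, and the 3 genes most alike in pattern to each member spanning 2 log2 units. Members and lists were chosen with earlier results of these data known. Part of the glial marker list is not reported here. Same-numbered replicates deviated together (every r over 0.1) only from P14 to P30, with r of 0.393, 0.244 and 0.104, the last being 0.0802 at a prior count of 0.5 in place of 2; the labels do not say that a number marks a shared batch.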

Additional observations from a re-analysis of the deposited data

How the results depend on the processing

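The number of members called from E15.5 to P1 was 0 in place of 1 with scaling by library size alone, with the edgeR quasi-likelihood test, with sample quality weights, with no filter and without replicate 1 of the 5 SGN ages. The number called from P1 to P8 was 2 with quality weights (Kcnj3 beside Kcnj10), and that from P14 to P30 was 1, Kcnj10, with DESeq2, quality weights or the replicate block. Over any age it was 5 with DESeq2. For P8 SGNs against glia it was 1 with quality weights and 3 with the 6 libraries compared alone. For P14 SGNs against HCs it was 2 with edgeR, and for glia against HCs 2 with quality weights. The cause was not tested. With each library left out in turn the numbers ran from 0 to 1 (E15.5 to P1), 2 to 3 (E15.5 to P30), 2 to 6 (any age, 6 without P14 replicate 2), 2 to 5 (P8 SGNs against glia), 4 to 5 (P14 SGNs against HCs) and 3 to 5 (glia against HCs), and stayed at 1 from P1 to P8 and at 0 from P8 to P14 and from P14 to P30.

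Among the members, the replicate block changed no call of P14 to P30 other than that of Kcnj10. For the other comparisons the numbers do not pair the samples, and no count of members moved past 1.5 times with the block. A tally under all alternatives covered only the 32 fold changes of members with an unadjusted p under 0.05 in the main fits. Of their values, 850 kept their direction and side of the threshold, 62 fell below it and 6 passed it, and no called change reversed. Calls gained by other fold changes, such as those of Kcnj16 from E15.5, are not in this tally. Scaling by library size alone moved the median log2 change of all genes to -0.49 from E15.5 to P30, -0.75 for P14 SGNs against HCs and -0.63 for glia against HCs, and the share of calls that were higher from 53.2% to 29.9%, 47.2% to 27.0% and 33.6% to 22.2%. It moved that share from 61.5% to 46.7% (E15.5 to P1), 57.7% to 35.6% (P1 to P8) and 46.9% to 26% (P8 to P14) as well. Quality weights turned the balance between cell types, from 64% to 38.2% higher for P8 SGNs against glia and from 33.6% to 61.3% for glia against HCs, and the edgeR test moved it from 47.2% to 61.1% for P14 SGNs against HCs and from 33.6% to 46.7% for glia against HCs. Over all genes, quality weights moved the number called from 1248 to 552 (E15.5 to P1), 81 to 174 (P8 to P14), 9 to 110 (P14 to P30), 3662 to 1942 (P8 SGNs against glia) and 4272 to 2226 (glia against HCs). The edgeR test moved it from 1124 to 649 (P1 to P8) and 81 to 34, DESeq2 from 81 to 219 and 9 to 97, the replicate block from 81 to 146 and 9 to 23, the 6 libraries alone from 1248 to 576 and 9 to 2, and no filter from 9 to 15. Without replicate 1 of the 5 SGN ages it was 622 from P1 to P8, 13 from P8 to P14 and 1 from P14 to P30. The looser thresholds between cell types gave 6943, 7198 and 7351 genes. With single libraries left out it fell as low as 688, 652, 28 and 1 in the 4 steps between neighbouring ages, and rose to 30 from P14 to P30. Counts at or under 3 per library (Kcnj4 in 13 libraries, Kcnj2 in most SGN libraries) limit what could be ordered at this depth.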
